A study of Mus musculus with 7 samples.

Results

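The genes described here are the 6 receptor genes for estrogens and progesterone that were chosen by name, namely Esr1, Esr2, Pgr, Pgrmc1, Pgrmc2 and Gper1, among the 55487 gene rows of the files. All 6 passed the filter on low counts, which kept 18779 genes for testing. Their RNA was measured by poly(A) RNA-seq in ovaries of adult C57BL/6J mice on postnatal day 60, taken at diestrus according to the methods of the study, in 3 control (CNTR) and 4 PAMH F3 libraries. CNTR mice were born to dams given PBS from E16.5 to E18.5 of gestation. PAMH F3 mice were the third generation bred from dams given human recombinant AMH at 0.12 mg/kg per day over the same days of gestation, and received no AMH themselves or through a later pregnancy. The methods of the study describe its controls as first-generation mice, so that lineage and generation cannot be told apart between the 2 groups. Whether a library held the RNA of a single mouse is not stated in the labels, and p values measure the spread between these libraries.

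Estrogens act in the ovary through the nuclear receptors ESR1 and ESR2, transcription factors that bind DNA once they hold their ligand. ESR2 is the form of granulosa cells, the cells that surround the oocyte and make estrogen, whereas ESR1 is found in theca, stroma and the epithelia of the reproductive tract. PGR is the nuclear progesterone receptor, induced by the LH surge in granulosa cells of the follicle about to ovulate, and needed for its rupture. In the uterus and oviduct, PGR is also made in epithelium and stroma under the control of estrogen. PGRMC1 and PGRMC2 are small heme-binding membrane proteins linked to rapid progesterone responses, and GPER1 is a G protein-coupled membrane receptor proposed to answer to estradiol.

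In GENCODE M21 on mm10, Esr1 (ENSMUSG00000019768) lies on chromosome 10 from 4611593 to 5005614 on the plus strand. Esr2 (ENSMUSG00000021055) lies on chromosome 12 from 76120419 to 76177259 on the minus strand. Pgr (ENSMUSG00000031870) lies on chromosome 9 from 8899833 to 8968611 on the plus strand. The genes of the membrane proteins are Pgrmc1 (ENSMUSG00000006373) on chromosome X from 36598206 to 36606079, plus strand, Pgrmc2 (ENSMUSG00000049940) on chromosome 3 from 41066326 to 41083046, minus strand, and Gper1 (ENSMUSG00000053647) on chromosome 5 from 139423151 to 139427800, plus strand. Esr2 overlaps the pseudogene Gm7862 on its own strand and Gper1 overlaps 3110082I17Rik on the opposite strand, with 0 exon bases shared in either case.

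The 250 bases before the transcription start of the genes whose values the results turn on are shown from RefSeq on GRCm38.p6, 5′ to 3′ on the strand of the gene, namely Esr2, with the largest fitted difference, and Esr1, Pgr and Pgrmc2, the genes with the highest correlations among the 15 pairs, 0 of which passed an adjusted p of 0.05. All 6 genes had an entry. Capitals mark matches, on either strand, to 6 motifs that were searched: the estrogen response element half-site AGGTCA, the palindromic element made of GGTCA and TGACC 3 bases apart, the progesterone response element half-site AGAACA, the GC box GGGCGG, the TATA box TATAAA and the cyclic AMP response element half-site TGACG. The palindrome shares 5 letters with the estrogen half-site.
Esr1, first start, chr10:4611739-4611988, plus strand: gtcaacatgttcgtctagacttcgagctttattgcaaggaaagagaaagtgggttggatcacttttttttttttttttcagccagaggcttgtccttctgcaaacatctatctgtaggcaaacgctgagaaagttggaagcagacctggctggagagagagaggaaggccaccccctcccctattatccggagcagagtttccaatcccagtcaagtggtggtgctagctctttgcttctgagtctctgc
Pgr, chr9:8899583-8899832, plus strand: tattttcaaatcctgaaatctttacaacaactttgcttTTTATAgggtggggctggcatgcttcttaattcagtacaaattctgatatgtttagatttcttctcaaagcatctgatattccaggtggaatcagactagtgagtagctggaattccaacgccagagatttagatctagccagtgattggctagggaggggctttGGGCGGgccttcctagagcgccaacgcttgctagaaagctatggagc
Pgrmc2, chr3:41083047-41083296, minus strand: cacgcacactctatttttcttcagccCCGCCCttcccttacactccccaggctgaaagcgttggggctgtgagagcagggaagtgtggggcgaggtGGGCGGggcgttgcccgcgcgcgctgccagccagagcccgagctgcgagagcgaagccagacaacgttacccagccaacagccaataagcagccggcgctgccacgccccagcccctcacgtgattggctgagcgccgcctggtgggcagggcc
Esr2, chr12:76177260-76177509, minus strand: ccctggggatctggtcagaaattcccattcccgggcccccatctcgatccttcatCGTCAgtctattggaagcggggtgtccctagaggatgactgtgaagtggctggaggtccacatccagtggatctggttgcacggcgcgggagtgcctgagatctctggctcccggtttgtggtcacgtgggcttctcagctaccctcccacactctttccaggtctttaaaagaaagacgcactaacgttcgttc

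The Pgr window held a GC box beginning 47 bases before the start and a TATA match on the opposite strand at 212 bases. Pgrmc2 had GC boxes at 154 and 224 bases, and the Esr2 window had a cyclic AMP half-site on the opposite strand at 195 bases. None of the 6 motifs was in the Esr1 window. No window of the 6 genes, the second start of Esr1 included, held an estrogen half-site, which was present in 14% of 32851 promoters of the same length. GC boxes were in 32.7% of those promoters, TATA matches in 12.4%, cyclic AMP half-sites in 17.8%, progesterone half-sites in 16.1% and the palindrome in 0.0639%. Among the windows shown, Esr1, Pgr and Pgrmc2 had no motif in common to all 3. A match is a description of the letters only.

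Gene counts came to between 32158174 and 35485021 per library, and were scaled by the library total and TMM factors to CPM, a count relative to that total. The tissue label was checked against markers of 11 cell types. Granulosa genes (7 markers, 2286 to 3492 CPM summed over both groups), theca and interstitial genes (6 markers, 3781 to 5946 CPM) and oocyte genes (6 markers, 221 to 357 CPM) were present in all 7 libraries, although the theca gene Insl3 had 0 to 5 counts. Oviduct epithelium genes were present as well. Ovgp1, a glycoprotein secreted by the oviduct, had 2394 to 6172 CPM and was the gene with the most counts in PAMH F3 replicate 3.

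At the level of the group comparison, 0 of the 6 genes passed an adjusted p of 0.05 in edgeR's quasi-likelihood test with 2 surrogate variables, where 0 of all 18779 genes (0%) passed it. With DESeq2, fitted on 33791 genes, 0 of the 6 passed, beside 102 genes with the surrogate variables and 8 without them. Without adjustment, 2 of 6 had p under 0.05 in edgeR, Esr1 and Esr2, both higher in PAMH F3, against 7.63% of all genes tested and 3.89% in that direction (3.74% in the other). The CPM ranges of CNTR and PAMH F3 overlapped for all 6 genes, while 4.25% of the genes tested had groups that did not overlap. The median log2 fold change of the 6 genes was 0.12, and that of all genes tested was 0.01. In a bulk tissue, fewer cells of a type and less RNA per cell cannot be told apart, for these genes and for those that follow.

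Esr2 was the receptor gene with the largest fitted difference. It stood at 94.99, 85.2 and 140.1 CPM in CNTR replicates 1 to 3 and at 123, 139.8, 146 and 174 CPM in PAMH F3 replicates 1 to 4. Each PAMH F3 library was above CNTR replicates 1 and 2, but CNTR replicate 3 was as high as the middle of that group, above PAMH F3 replicates 1 and 2. The means were 107 ± 29.3 (SD, n = 3) and 145.5 ± 21.2 (SD, n = 4) CPM. The fitted log2 fold change was 0.49 (SE 0.13), with p = 0.00604 and an adjusted p of 0.522 in edgeR, while the exact two-sided permutation test of the CPM means over the 35 divisions of the libraries gave p = 0.171, where the smallest p possible is 0.0286. Of all genes tested, 214 had a smaller unadjusted p than Esr2, and 6.61% had a larger absolute log2 fold change.

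Esr2 was higher in PAMH F3 under all 20 alternative settings, with a log2 fold change from 0.30 to 0.69 and an unadjusted p under 0.05 in 14 of the 20. Its adjusted p over these settings ranged from 0.0574, with DESeq2 and the same surrogate variables, to 1. Of the 7 edgeR fits with a library left out, all without surrogate variables, only 2 had an unadjusted p under 0.05. The settings with other scaling, other filters or robust fitting kept the same 7 libraries and 2 surrogate variables as the main fit. Without surrogate variables the log2 fold change was 0.45 (SE 0.17, adjusted p = 0.994, edgeR). In the same fit it was 0.69 without CNTR replicate 3 and 0.30 without CNTR replicate 2, so that the size of the difference moved with single control libraries. The slope of log2 CPM on GC content was 0.298 per 10% in CNTR replicate 2 and -0.119 to 0.0452 in the other libraries. Across the 7 libraries this slope had an r of -0.62 with Esr2. With the GC content and length correction and no surrogate variables, the log2 fold change of Esr2 was 0.44 (SE 0.20, adjusted p = 0.997, edgeR). The part of GC content in the Esr2 values was not tested further.

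Granulosa markers moved with Esr2 in part, and stroma markers moved in part against it. Summed over 7 genes (Fshr, Amh, Inha, Cyp19a1, Foxl2, Nr5a2 and Hsd17b1), granulosa markers came to 2286, 2610 and 3492 CPM in CNTR and to 2463, 2745, 2864 and 3476 CPM in PAMH F3. The groups overlapped (exact permutation p = 0.771), CNTR replicate 3 and PAMH F3 replicate 4 were the highest libraries of their groups for both the markers and Esr2, and no marker was at 0. Of the 7 markers, 3 had unadjusted p under 0.05, against 7.63% of all genes tested. Of these, 1 was higher (Hsd17b1) and 2 were lower (Amh and Foxl2). Inha, at 1318 to 2130 CPM, made up most of the sum. Nr5a2 and Hsd17b1 were highest in PAMH F3 replicate 4 (752 and 288 CPM), as Esr2 was, whereas Amh was highest in CNTR replicate 2 (140 CPM), where Esr2 was lowest. Across the 7 libraries Esr2 and the marker sum had a Pearson r of 0.74 and a Spearman rho of 0.79, given as a description since the values share libraries. With the marker sum as a covariate in place of the surrogate variables, the log2 fold change of Esr2 was 0.41 (SE 0.10, adjusted p = 0.998, edgeR). Stroma markers (Dcn, Lum, Col1a1, Pdgfra and Tcf21) summed to 1520, 1570 and 1572 CPM in CNTR and to 1490, 1482, 1285 and 1158 CPM in PAMH F3. This sum was lower in each PAMH F3 library than in any CNTR library (exact permutation p = 0.114). For each of the 5 markers taken alone, however, the groups overlapped, and Col1a1 was higher in the fit (log2 fold change 0.10). Of all single genes tested, 4.25% had groups apart. The stroma sum had an r of -0.71 and a rho of -0.64 with Esr2. None of the 5 was at 0, and 1 of them, Tcf21, had an unadjusted p under 0.05. Luteal markers (Akr1c18, Lhcgr, Ptgfr and Parm1) summed to 1258, 1327 and 2491 CPM in CNTR and to 1428, 842, 1149 and 1175 CPM in PAMH F3. The means were 1692 CPM in CNTR, raised by replicate 3, and 1149 CPM in PAMH F3. The groups overlapped (exact permutation p = 0.143), and the r of this sum with Esr2 was -0.06. Of the 4 luteal markers, only Ptgfr had an unadjusted p under 0.05 in edgeR (log2 fold change -0.95), while Parm1 was higher in the fit (0.10). The part of these cell types in the Esr2 values was not tested further.

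**Figure D1:**
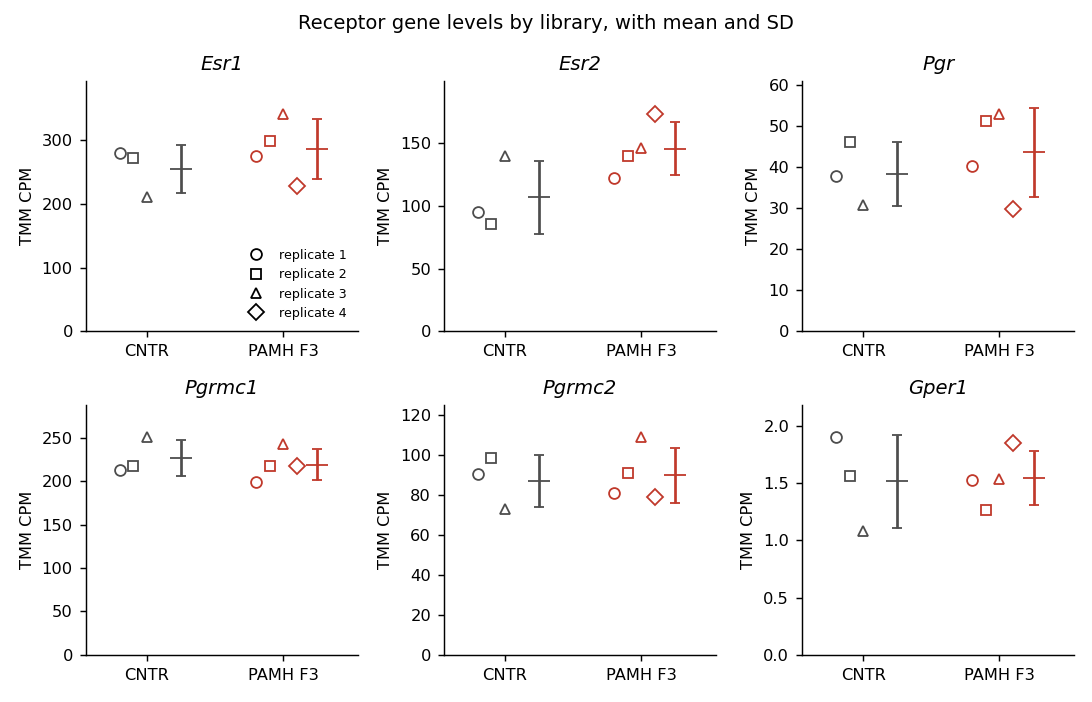
TMM-normalized CPM (linear axes from 0) of each receptor gene by library in 3 CNTR (grey) and 4 PAMH F3 (red) libraries. Each symbol is a library, with the mean and SD beside the symbols. The groups overlap in every panel, and in Esr2 only CNTR replicate 3, at 140.1 CPM, reaches the PAMH F3 range of 123 to 174 CPM.

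Esr1 had 279.7, 273 and 211 CPM in CNTR and 275, 299, 342 and 228 CPM in PAMH F3. The lowest libraries were CNTR replicate 3 and PAMH F3 replicate 4, the highest was PAMH F3 replicate 3, and the groups overlapped. Means were 255 ± 37.5 (SD, n = 3) and 286 ± 47.4 (SD, n = 4) CPM. The log2 fold change of 0.16 (SE 0.07) had p = 0.0499 and an adjusted p of 0.654 in edgeR, and the exact permutation test of the means gave p = 0.343. Without the surrogate variables it was 0.17 (SE 0.15), no longer at an unadjusted p under 0.05. There it came to 0.05 without CNTR replicate 3 and to 0.06 without PAMH F3 replicate 3, and it was 0.27 without PAMH F3 replicate 4.

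Pgr, the nuclear progesterone receptor gene, was at 37.8, 46.1 and 30.7 CPM in CNTR and at 40.2, 51.2, 52.9 and 29.6 CPM in PAMH F3. As for Esr1, CNTR replicate 3 and PAMH F3 replicate 4 were lowest and PAMH F3 replicate 3 was highest. The means were 38.2 ± 7.74 (SD, n = 3) and 43.5 ± 10.8 (SD, n = 4) CPM. The log2 fold change was 0.24 (SE 0.11), with an adjusted p of 0.674 in edgeR and an exact permutation p of 0.514. Without surrogate variables it was 0.19. In that fit, it was 0.05 without CNTR replicate 3, 0.07 without PAMH F3 replicate 3, 0.09 without PAMH F3 replicate 2, and 0.34 without either CNTR replicate 2 or PAMH F3 replicate 4.

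Among the genes of the membrane proteins, Pgrmc1 and Pgrmc2 had smaller fitted differences between the groups than Esr1, Esr2 and Pgr. Pgrmc2 was at 90.4, 98.0 and 72.7 CPM in CNTR and at 80.8, 90.7, 109 and 78.7 CPM in PAMH F3, again with CNTR replicate 3 and PAMH F3 replicate 4 as the lowest libraries of all. Its log2 fold change was 0.07 (SE 0.06, adjusted p = 0.815, edgeR). Pgrmc1 was at 213, 217 and 250.3 CPM in CNTR and at 199, 217, 242 and 217 CPM in PAMH F3, and varied least among libraries, with a coefficient of variation of 7.99% over the 7 libraries. CNTR replicate 3, lowest for Esr1, Pgrmc2 and, within CNTR, Pgr, was the highest library for Pgrmc1. The log2 fold change of Pgrmc1 was -0.01 (SE 0.09, adjusted p = 0.988, edgeR). Gper1 had only 35 to 63 counts per library, or 1.08 to 1.90 CPM, and the groups overlapped throughout. Its log2 fold change was -0.04 with an SE of 0.25 (adjusted p = 0.989, edgeR), so a small difference was not detectable at this depth.

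**Figure D2:**
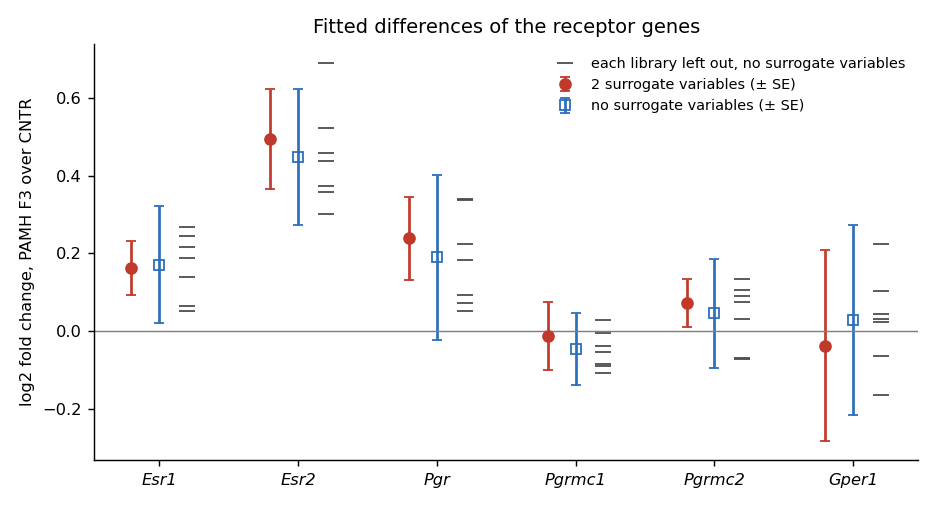
Fitted log2 fold change (PAMH F3 over CNTR) of each receptor gene in edgeR with 2 surrogate variables (red, ± SE), with none (blue, ± SE), and with each library left out in turn and none (grey dashes). Esr2, at 0.49 in the first fit, stays above 0 with every library left out (0.30 to 0.69), as do Esr1 and Pgr, whereas Pgrmc1, Pgrmc2 and Gper1 fall on both sides of 0.

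Levels of different genes were compared as CPM per kilobase of the exon union, averaged over the 7 libraries. Pgrmc1 had the highest level at 120 ± 9.56 CPM per kilobase (SD, n = 7). It was followed by Esr2 at 38.3 ± 9.10, Pgrmc2 at 27.3 ± 3.80, Esr1 at 19.9 ± 3.17, Pgr at 4.83 ± 1.09 and Gper1 at 0.604 ± 0.115 CPM per kilobase. The ranges over libraries did not overlap between Pgrmc1 and Esr2, between Esr1 and Pgr, or between Pgr and Gper1. They overlapped for Esr2 and Pgrmc2, with Esr2 above in 6 of 7 libraries, and for Pgrmc2 and Esr1, with Pgrmc2 above in 7 of 7.

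The place of Esr1 in this order depended on the length used. The annotation gives Esr1 an exon union of 13661 bases but a median transcript of 2672.5 bases over 10 transcripts, while for Esr2 the lengths are 3368 and 3288 bases. Per kilobase of the median transcript, Esr1 came second at 102 ± 16.2 CPM (SD, n = 7), below Pgrmc1 at 120 and above Pgrmc2 at 49.2 and Esr2 at 39.2 CPM. The counts do not say which transcripts were present, so neither order of Esr1 and Esr2 is given as the level of the protein-coding RNA.

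Within a library, the log2 ratio of Esr1 to Esr2 per kilobase of exon union was -0.46, -0.34 and -1.43 in CNTR and -0.86, -0.92, -0.79 and -1.62 in PAMH F3. The means were -0.74 ± 0.59 (SD, n = 3) and -1.05 ± 0.39 (SD, n = 4), closer together than the spread within CNTR. CNTR replicate 3 and PAMH F3 replicate 4 had the ratios most in favor of Esr2. The log2 ratio of Pgr to Esr1 varied less, from -2.27 to -1.87 over the 7 libraries, with means of -2.07 ± 0.17 in CNTR and -2.06 ± 0.17 in PAMH F3. Pgrmc1 to Pgrmc2 ranged from 1.95 to 2.59 in CNTR and up to 2.27 in PAMH F3, with means of 2.19 ± 0.35 and 2.10 ± 0.13.

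Across the 7 libraries, the highest correlations among the receptor genes were those of Esr1, Pgr and Pgrmc2. Of the 15 pairs of receptor genes, 3 had an unadjusted p under 0.05 for Pearson's r of log2 CPM in an exact permutation test over the 5040 orders, all 3 among these genes, and 0 of 15 passed a Benjamini-Hochberg adjusted p of 0.05. For Esr1 and Pgr, r was 0.92 (exact permutation p = 0.00437, adjusted 0.0521, n = 7) and rho was 0.82 (exact permutation p = 0.0341, adjusted 0.24). Taken as deviations from the group means, pooled over both groups, r was also 0.92, and without CNTR replicate 3 and PAMH F3 replicate 3, the libraries farthest from the median of Esr1, it was 0.90. Esr1 and Pgrmc2 had r = 0.89 (exact permutation p = 0.00694, adjusted 0.0521, n = 7) and rho = 0.79 (exact permutation p = 0.048, adjusted 0.24). This relation came to 0.61 without those libraries (exact permutation p = 0.242), so it rested in part on them, and it was 0.92 as pooled deviations. Pgr and Pgrmc2 had r = 0.86 (exact permutation p = 0.0161, adjusted 0.0804, n = 7) and rho = 0.89 (exact permutation p = 0.0123, adjusted 0.184), with r = 0.80 without PAMH F3 replicates 3 and 4 and 0.86 as pooled deviations. Within CNTR, Esr1 was highest in replicate 1, and Pgr and Pgrmc2 were highest in replicate 2. Esr2 had an r with Esr1 of -0.20 over all libraries and -0.69 as pooled deviations, and its r with Pgr was -0.28 and -0.67.

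Oviduct epithelium markers, taken as a sum, were lowest in the libraries where Esr1, Pgr and Pgrmc2 were lowest, CNTR replicate 3 and PAMH F3 replicate 4, and highest in PAMH F3 replicate 3, where these genes were highest. In between, the order differed, as CNTR replicate 2 had more Pgr and Pgrmc2 than CNTR replicate 1 but a lower marker sum. Summed over Ovgp1, Foxj1, Epcam, Pax8 and Cdh1, these came to 5478, 4224 and 3113 CPM in CNTR and to 4249, 4766, 6616 and 2695 CPM in PAMH F3. The groups overlapped (exact permutation p = 0.83), 0 of the 5 genes had unadjusted p under 0.05 in edgeR, and none was at 0 in any library. Without Ovgp1, which made up most of the sum, the other 4 genes came to 404, 421 and 281 CPM in CNTR and to 315, 377, 444 and 301 CPM in PAMH F3, with the same lowest library in each group and PAMH F3 replicate 3 again highest, although CNTR replicate 2 rather than 1 was highest in CNTR. Foxj1 alone departed from this order. It was lowest in PAMH F3 replicate 1 (64.0 CPM) and highest in CNTR replicate 2 (142 CPM), with 97.0 CPM in PAMH F3 replicate 3. Over the 7 libraries the sum of all 5 had an r of 0.93 with Esr1, 0.82 with Pgr and 0.83 with Pgrmc2 (rho 0.93, 0.75 and 0.71), against an r of -0.36 with Esr2, -0.01 with Pgrmc1 and 0.15 with Gper1. Markers of the ovarian surface epithelium, some of which the oviduct also expresses (484 to 807 CPM over the 7 libraries), had an r of 0.81, 0.79 and 0.74 with the same 3 genes. Of these markers, Krt18, Krt7 and Krt19 were highest in PAMH F3 replicate 3. Upk3b and Msln were highest in CNTR replicate 1 (172 and 119 CPM). Both were lower in PAMH F3 replicate 3 (104 and 78.4 CPM) than in CNTR replicate 3 (127 and 89.0 CPM). Adipocyte markers, which ranged from 97.2 to 749 CPM, had an r of 0.68 with Esr1, 0.62 with Pgr and 0.64 with Pgrmc2. Theca and interstitial markers ran the other way, with an r of -0.73, -0.66 and -0.65 with Esr1, Pgr and Pgrmc2, as did luteal markers with -0.68, -0.61 and -0.58. Cyp11a1, at 2939 to 4899 CPM, made up most of the theca and interstitial sum. Cyp17a1 was highest in CNTR replicate 3 (428 CPM) and Ptch1 in PAMH F3 replicate 4 (175 CPM). Star was highest in PAMH F3 replicate 3 (583 CPM). Of the luteal markers, Akr1c18, Lhcgr and Ptgfr were highest in CNTR replicate 3 (1043, 523 and 883 CPM). Akr1c18 was next highest in PAMH F3 replicate 3 (557.5 CPM), where Esr1, Pgr and Pgrmc2 were highest. Parm1 was lowest in CNTR replicate 3 (41.4 CPM), as Esr1 was. Stroma markers had an r of -0.05 with Esr1.

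With the oviduct marker sum as a covariate in place of the surrogate variables, the log2 fold change of Esr1 was 0.13 (SE 0.07), that of Pgr was 0.12 (SE 0.14) and that of Pgrmc2 was 0.02 (SE 0.10), with adjusted p of 0.906, 0.941 and 0.989 in edgeR. That of Esr2 was 0.48 (SE 0.15, adjusted p = 0.906, edgeR). The first surrogate variable of the main fit had an r of -0.94 with Pgrmc2, -0.86 with Pgr, -0.80 with Esr1 and 0.59 with Esr2. The part of oviduct or fat tissue in the receptor values was not tested further.

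**Figure D3:**
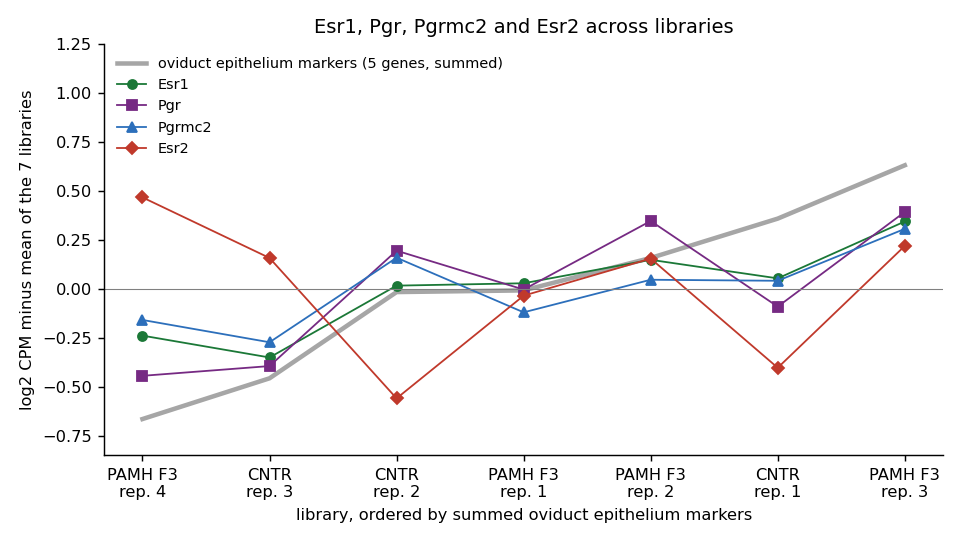
log2 CPM of Esr1, Pgr, Pgrmc2 and Esr2 minus the mean of the 7 libraries, and the same for the summed oviduct epithelium markers (thick grey line), with libraries ordered by that sum from 2695 to 6616 CPM. Esr1, Pgr and Pgrmc2 lie lowest in the leftmost pair of libraries, PAMH F3 replicate 4 and CNTR replicate 3, and highest at the right in PAMH F3 replicate 3, and Esr2 is highest at the left.

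The genes whose log2 CPM followed each receptor gene most closely were taken from 11016 genes with a mean of at least 10 CPM, as a description over 7 libraries that share depth and tissue. For Esr2 they were Foxo1 (r = 1.00 after rounding, 414 to 768 CPM), a forkhead factor of granulosa cells, Zfp950 (r = 0.99) and Fst (r = 0.99, 166 to 379 CPM), which encodes the activin-binding protein follistatin. For Esr1 they were Dbndd2 (0.99), Dbpht2 (0.99) and Atp6v1c1 (0.99), and for Pgr they were Scrn1 (0.99), Slc15a2 (0.99) and Gng12 (0.98). Pgrmc2 had Tprn (0.99), Ntan1 (0.98) and Rrp1 (0.98). Esr1, Esr2, Pgr and Pgrmc2 had 42, 34, 23 and 29 such genes above an r of 0.95. Pgrmc1 had 1, Lysmd2 (0.95), ahead of Ephb6 and Ubap1, and Gper1 had 1, Nolc1 (0.95), ahead of Cdca4 and Osbpl10.

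Around the receptors, 6 gene lists were followed, with 77 different genes tested, and 0 of these passed an adjusted p of 0.05 in edgeR. With DESeq2 and the same surrogate variables 1 did, Zbtb16, in a fit where 102 of 33791 genes passed and 18344 had no adjusted p. The 23 coregulators and chaperones, which carry the receptors or join them on DNA, had a median log2 fold change of 0.04, beside 0.01 for all genes tested. None was higher at unadjusted p under 0.05 and 2 were lower, against 7.63% of all genes tested (3.89% higher and 3.74% lower). Fkbp5, a co-chaperone induced by steroid receptors, had 684, 579.8 and 494 CPM in CNTR and 585, 359, 328 and 450.4 CPM in PAMH F3 (log2 fold change -0.57, SE 0.19). Only PAMH F3 replicate 1 reached the CNTR range. Without surrogate variables the log2 fold change was -0.44, and in that fit -0.32 without CNTR replicate 1.

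Among 14 targets of PGR in the ovulating follicle, 13 could be tested, since Snap25 had 4 to 15 counts. None was higher and 1 was lower at unadjusted p under 0.05, against 7.63% of all genes tested. The median log2 fold change was -0.02. The lower gene, Zbtb16, which encodes a zinc finger transcription factor, had 11.1, 10.0 and 15.3 CPM in CNTR and 9.21, 7.02, 7.03 and 8.65 CPM in PAMH F3. All 4 PAMH F3 libraries were below all 3 CNTR libraries. Zbtb16 was the only gene of the 13 with groups apart, beside 4.25% of all genes tested. The means were 12.2 ± 2.80 (SD, n = 3) and 7.98 ± 1.13 (SD, n = 4) CPM, and the log2 fold change was -0.61 (SE 0.12) with an adjusted p of 0.42 in edgeR. The exact permutation p of 0.0286 is the smallest that 35 divisions can give. With DESeq2 and the same surrogate variables the adjusted p was 0.0187, and over the 20 alternatives it ranged from there to 1.00. Without CNTR replicate 3 and without surrogate variables the log2 fold change was -0.41.

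The 15 estrogen-responsive genes had a median log2 fold change of -0.00. At unadjusted p under 0.05, 2 were higher and 2 lower, against 7.63% of all genes tested. Inhba, which encodes the activin A subunit, had 1155, 936 and 2378 CPM in CNTR and 1692, 1965, 1285 and 2526 CPM in PAMH F3, with CNTR replicate 3 and PAMH F3 replicate 4 highest (log2 fold change 0.40, SE 0.13, adjusted p = 0.584, edgeR). Without surrogate variables this was 0.33, and in that fit 0.83 without CNTR replicate 3 and 0.07 without CNTR replicate 2. Ccnd1, a cyclin of the G1 phase, had a log2 fold change of 0.29 (SE 0.09). Without surrogate variables this was 0.30, and in that fit 0.10 without PAMH F3 replicate 3 and 0.13 without CNTR replicate 3. On the other side stood the chemokine gene Cxcl12, at 214, 116 and 73.1 CPM in CNTR and 121, 69.2, 70.4 and 48.4 CPM in PAMH F3 (log2 fold change -0.95, SE 0.24, adjusted p = 0.522, edgeR), and the growth factor gene Tgfa (-0.25, SE 0.08). Without surrogate variables Cxcl12 was at -0.79, and in that fit at -0.29 without CNTR replicate 1, while the replicate block gave -0.54. Tgfa came to -0.15 without surrogate variables, and in that fit to -0.07 without CNTR replicate 1, -0.08 without PAMH F3 replicate 3 and -0.27 without CNTR replicate 2. The groups overlapped for each of these 4 genes.

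Of the 12 membrane progesterone receptors and partners of the PGRMC proteins, 2 were higher and 0 lower at unadjusted p under 0.05. Over all genes tested, 7.63% were called at that level. The median log2 fold change of the list was -0.04. Both higher genes, Paqr8 and Paqr9, were members of the PAQR family of membrane progesterone receptors. The family as a whole did not share this direction. Paqr5 and Paqr7 were lower in the fit (log2 fold change -0.13 and -0.09) and Paqr6 was higher (0.07), none of them at unadjusted p under 0.05 in edgeR. Paqr9 had 15.6, 18.6 and 19.2 CPM in CNTR and 31.6, 20.5, 45.7 and 22.4 CPM in PAMH F3, without overlap. The lowest PAMH F3 library was close to the highest CNTR library, and 4.25% of all genes tested had groups apart. The log2 fold change of Paqr9 was 0.82 (SE 0.28, adjusted p = 0.604, edgeR), and the exact permutation test of the means gave p = 0.143. It was 0.76 without surrogate variables and in that fit 0.47 without PAMH F3 replicate 3. Paqr8 had 45.6, 49.7 and 69.7 CPM in CNTR and 62.2, 60.4, 70.2 and 68.3 CPM in PAMH F3, with CNTR replicate 3 inside the PAMH F3 range, and a log2 fold change of 0.33 (SE 0.11). Without surrogate variables this was 0.25, and in that fit 0.13 without CNTR replicate 1 and 0.45 without CNTR replicate 3.

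Of 11 genes of estrogen and progesterone synthesis and breakdown, 10 could be tested (Sult1e1 had 0 to 8 counts), with a median log2 fold change of -0.02. At unadjusted p under 0.05, 2 were higher and 1 lower, against 7.63% of all genes tested. Hsd17b1, which makes estradiol from estrone in granulosa cells, had 139.9, 155 and 248 CPM in CNTR and 189, 212, 212 and 288 CPM in PAMH F3. CNTR replicate 3 was again within the PAMH F3 range. The log2 fold change was 0.42 (SE 0.11, adjusted p = 0.522, edgeR), and 0.32 without surrogate variables, with 0.61 without CNTR replicate 3 and 0.16 without CNTR replicate 1 in that fit. Srd5a1, a steroid 5-alpha reductase, had a log2 fold change of 0.29 (SE 0.10). Without surrogate variables it was 0.30, and in that fit 0.19 without PAMH F3 replicate 4, and the replicate block also gave 0.19. Cyp19a1, the aromatase that makes estrogen, had 57.6, 81.2 and 212 CPM in CNTR and 91.7, 88.7, 72.0 and 145 CPM in PAMH F3. Its mean was lower in PAMH F3 (99.4 ± 31.8 CPM, SD, n = 4) than in CNTR (117 ± 83.1 CPM, SD, n = 3; exact permutation p = 0.743), whereas the fit with surrogate variables gave a log2 fold change of the opposite sign (0.09, SE 0.07, adjusted p = 0.796, edgeR). The 5 related nuclear receptors (the glucocorticoid and mineralocorticoid receptors and 3 estrogen-related receptors) had a median log2 fold change of -0.08, with 0 at unadjusted p under 0.05 in edgeR. Esrrg, with the smallest p among them, had a log2 fold change of -0.28 (SE 0.15).

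**Figure D4:**
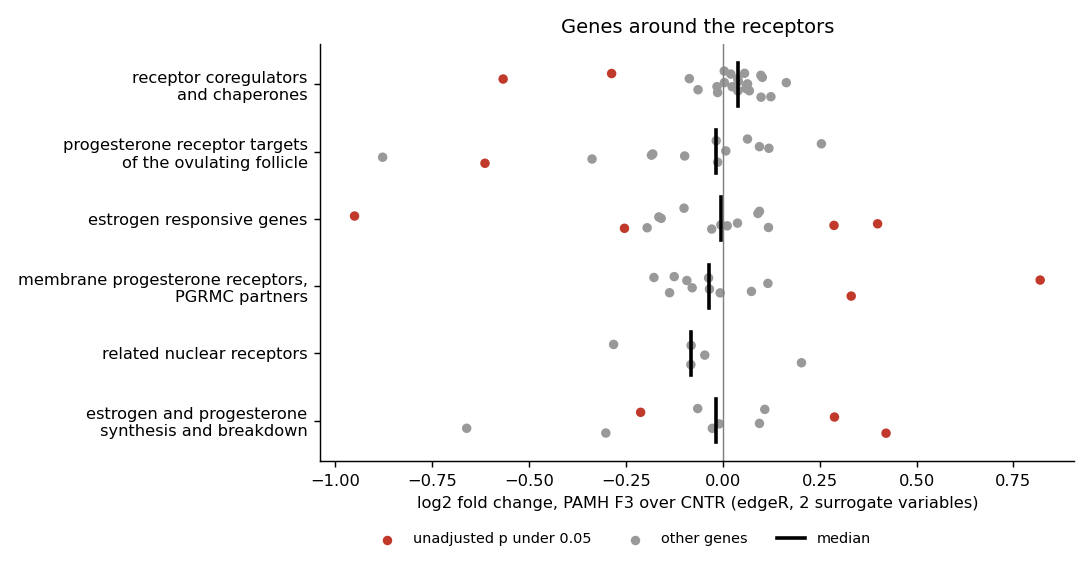
Fitted log2 fold change (PAMH F3 over CNTR, edgeR with 2 surrogate variables) of each tested gene in the 6 lists. Each point is a gene, red where the unadjusted p was under 0.05, and black bars are list medians. The medians lie between -0.08 and 0.04, with Paqr9 at 0.82 on the right and Cxcl12 at -0.95 on the left as the genes farthest from 0.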

How the data were processed

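The authors made poly(A)-selected stranded libraries from ovarian RNA and sequenced single reads. Per the labels' processing notes and the methods of the study, reads were demultiplexed with bcl2fastq 2.17.1.14, aligned to mm10 with STAR 2.5.3a and counted in genes with HTSeq 0.6.1p1. The authors deposited raw counts per gene, without normalization. The annotation release and the strand setting are not given in the sources used here. HTSeq's 5 summary lines, between 45.8% and 47.5% of each file's total, were left out. No 2 libraries agreed within sampling noise (smallest mean chi-square 14.7, where 1 is sampling noise). Group and replicate came from the labels.

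Genes kept by filterByExpr (minimum count 10) were tested with edgeR 4.0.16 (R 4.3.3) using its quasi-likelihood test on TMM-scaled counts, with 2 surrogate variables from svaseq (sva 3.50.0, number estimated with seed 1 and 20 permutations, at most 3) and Benjamini-Hochberg adjustment at 0.05. After the fit, 3 residual degrees of freedom remained. Single values were compared by two-sided exact permutation tests over libraries. Correlations used log2 CPM with a prior count of 2. Lengths came from GENCODE M21, to which 55394 of 55487 gene rows were matched. The scripts were tested on simulated data. Alternatives were DESeq2 1.42.0, other numbers of surrogate variables, scalings and filters, robust fitting, a GC content and length correction, a replicate block and leaving out each library. Fits with a marker sum as covariate were chosen after seeing the data.

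The genes named were the 6 receptor genes, up to 4 genes per list with the smallest unadjusted p under 0.05 (otherwise the smallest), the 3 closest genes by r, and the genes of reported marker lists. Of the list genes that this rule names, 2 are not reported here, although the counts of their lists include them. As a list gene, Cyp19a1 was named after its values were seen. The receptor genes and lists were chosen with earlier results of these data known. Precision was set by 3 and 4 libraries.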

Additional observations from a re-analysis of the deposited data

Results flagged for a closer look

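In 1 of 19 groups of 4 libraries tested, a library stood far from the others. Esrrg, an estrogen-related receptor gene, had 7.09 CPM in PAMH F3 replicate 4, while the other PAMH F3 libraries had 5.61 to 5.78 CPM. Chance marks about 1 in 20 such groups.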

How the results depend on the processing

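Of 601 recomputed values, 565 kept their direction and their side of the threshold and 26 changed sign. With DESeq2, fitted on 33791 genes, 102 genes passed the threshold with the surrogate variables and 8 without them (18344 and 12454 genes had no adjusted p), and with edgeR 8 passed with no filter on low counts, 0 in the main fit and 0 to 2 when a library was left out (2 without PAMH F3 replicate 1). Among progesterone receptor targets, 1 gene passed with DESeq2 and the surrogate variables. The log2 fold change of Gper1 turned positive with no surrogate variables (0.0287), with 1 (0.0467), with DESeq2 without them (0.0288), with the GC content and length correction (0.13), and with oviduct (0.0296) or granulosa markers (0.0795) as covariate, both added after seeing the data. With each library left out it ran from -0.16 to 0.23, and was 0.0437 without CNTR replicate 2, 0.0313 without PAMH F3 replicate 1 and 0.0231 without PAMH F3 replicate 3. Leaving out CNTR replicate 3 turned Pgrmc1 (0.0277, range -0.11 to 0.0277) and Pgrmc2 (-0.0706, range -0.0706 to 0.13), and leaving out PAMH F3 replicate 3 turned Pgrmc2 (-0.0688). Leaving out CNTR replicate 1 turned Esrrg (0.14, range -0.31 to 0.14). Differences of mean CPM with a library left out ran from -15.4 to 4.22 for Pgrmc1, from -4.51 to 8.17 for Pgrmc2 (-3.65 without PAMH F3 replicate 3) and from -0.18 to 0.22 for Gper1 (-0.07 without PAMH F3 replicate 4). Correlations with Gper1 without the 2 farthest libraries changed sign for Esr1 (-0.66), Esr2 (0.48), Pgr (0.23), Pgrmc1 (0.0231) and Pgrmc2 (-0.30). With the median transcript length, the mean log2 ratios were 1.40 for Esr1 to Esr2, 1.29 for Pgrmc1 to Pgrmc2 and -3.12 for Pgr to Esr1, by the construction of the length. Same-numbered libraries deviated with r = 0.10, 0.10 and -0.25, beside -0.235 to 0.277 for libraries of unlike number. These values show no pairing by number, but so few pairs cannot exclude it. PAMH F3 replicate 4 has no CNTR library of its number, so it adds nothing to the group difference fitted with the replicate block. With the replicate block, 0 genes passed and 442 had unadjusted p under 0.05 (edgeR), and the log2 fold changes were 0.39 for Esr2, 0.27 for Esr1 and 0.35 for Pgr. The cause of these changes was not tested. Among the receptor genes, depth was lowest for Gper1.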
